A study of Mus musculus with 7 samples.

Results

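The microRNAs described here are those known from microglia, the resident macrophages of the brain, and from white blood cells: both arms of miR-142 and of miR-342, and miR-146a, miR-146b, miR-150, miR-155 and miR-223. They were chosen by name, and of 566 probes to mouse miRNAs 9 carried these names. The panel was the NanoString nCounter mouse miRNA assay, version 1.3, which counts color-coded probes without amplification, and it was run on total RNA of 7 samples. The 3 neocortex samples held cortical layers II to IV of CD1 mice without the transgene (wild type), all at postnatal day 60. The other 4 were astrocytomas of hGFAP-HaV12-Ras transgenic mice, also CD1, taken at postnatal days 65, 104, 125 and 134 and numbered tumor 1 to 4 in that order. As its name gives it, the transgene puts oncogenic Ras under control of the human GFAP promoter, which is active in astrocytes. Neocortex 2 and tumor 2 came from females and the other samples from males. The labels do not say where in the brain each tumor lay, whether tissue of several animals was pooled, or whether the samples of a group came from separate animals, so p-values measure the spread between these samples. All tumors were older than the neocortex samples, and age and tumor cannot be told apart.

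A miRNA guides silencing proteins to messenger RNAs that pair with its seed, the bases near its 5′ end. miR-142 is made in cells of the blood lineage, microglia included, and miR-223 in granulocytes, monocytes and platelets. miR-146a and miR-146b are induced by the inflammatory factor NF-kB and lower its activators Traf6 and Irak1, whereas miR-155 is induced in activated macrophages and lymphocytes and lowers the cytokine brake Socs1. miR-150 is typical of mature lymphocytes and lowers the transcription factor Myb, and miR-342 is made from within the gene Evl.

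The mature sequences show which members can share targets and which probes face near-identical molecules. RefSeq, on build GRCm38.p6, held 8 of the 9, and they are printed 5′ to 3′ with the seed (bases 2 to 8) in capitals.
miR-142-3p: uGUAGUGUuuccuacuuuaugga
miR-142-5p: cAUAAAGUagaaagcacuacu
miR-223: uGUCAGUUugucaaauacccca
miR-146a: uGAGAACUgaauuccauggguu
miR-146b: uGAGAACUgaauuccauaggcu
miR-155: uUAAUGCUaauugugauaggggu
miR-342-3p: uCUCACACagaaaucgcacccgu
miR-342-5p: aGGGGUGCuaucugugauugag

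miR-146a and miR-146b were the only pair of these 8 with the same seed, and no other mature miRNA in the RefSeq table had a seed found among them. Over 22 bases the miR-146 pair matched at 20, with the substitutions G18A and U21C from miR-146a to miR-146b, counted from the 5′ end. Their genes lie apart, miR-146a on the minus strand at chr11:43374435-43374456 and miR-146b on the plus strand at chr19:46342790-46342811. Both miR-142 arms come from the plus strand of chromosome 11, the 5p arm at chr11:87756867-87756887 and the 3p arm at chr11:87756903-87756925. miR-223 lies at chrX:96242884-96242905 inside the noncoding gene F630028O10Rik. miR-155 lies at chr16:84714143-84714165 inside Mir155hg, its own host transcript. The miR-342 arms, at chr12:108658638-108658659 and chr12:108658680-108658702, lie inside Evl. These 4 mature miRNAs are on the plus strand.

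The values are the authors' log2 values, scaled per sample, with 0 for whatever fell below the sample's own cutoff. That cutoff was 4.91 ± 0.28 for the 3 neocortex samples and 3.44 ± 0.33 for the 4 tumors (mean ± SD), so a miRNA at 1 level can be listed in a tumor and at 0 in neocortex. Low values are whole multiples of 1 number per sample, which returns the probe counts, and the samples held 23549 to 60831 miRNA counts in neocortex and 117530 to 208006 in tumor. Of the 8 negative-control probes, only NEG_D stood above the cutoff in neocortex, at 5.42, 5.73 and 5.80. It was at 3.75, 4.17 and 3.48 in tumors 1, 3 and 4 and at 0 in tumor 2, and 1 other negative control was listed in each of tumors 1 and 2. Tumor and neocortex were compared with limma on the values as deposited, with Benjamini-Hochberg adjustment over the 283 miRNAs that passed a filter on the mean over all samples. Of these, 23 (8.13%) were higher and 27 (9.54%) lower in tumor at an adjusted p under 0.05. Scaled on the positive-control probes the split was 228 higher and 0 lower (also 0 lower in limma at an unadjusted p under 0.05), and scaled on the housekeeping mRNA probes it was 10 and 135. The median difference over all tested miRNAs was 0.03 as deposited, 1.74 when scaled on positive controls, -0.93 when scaled on housekeeping mRNAs and 0.14 with median scaling, and each direction below is relative to the authors' scaling unless another is named.

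**Figure D1:**
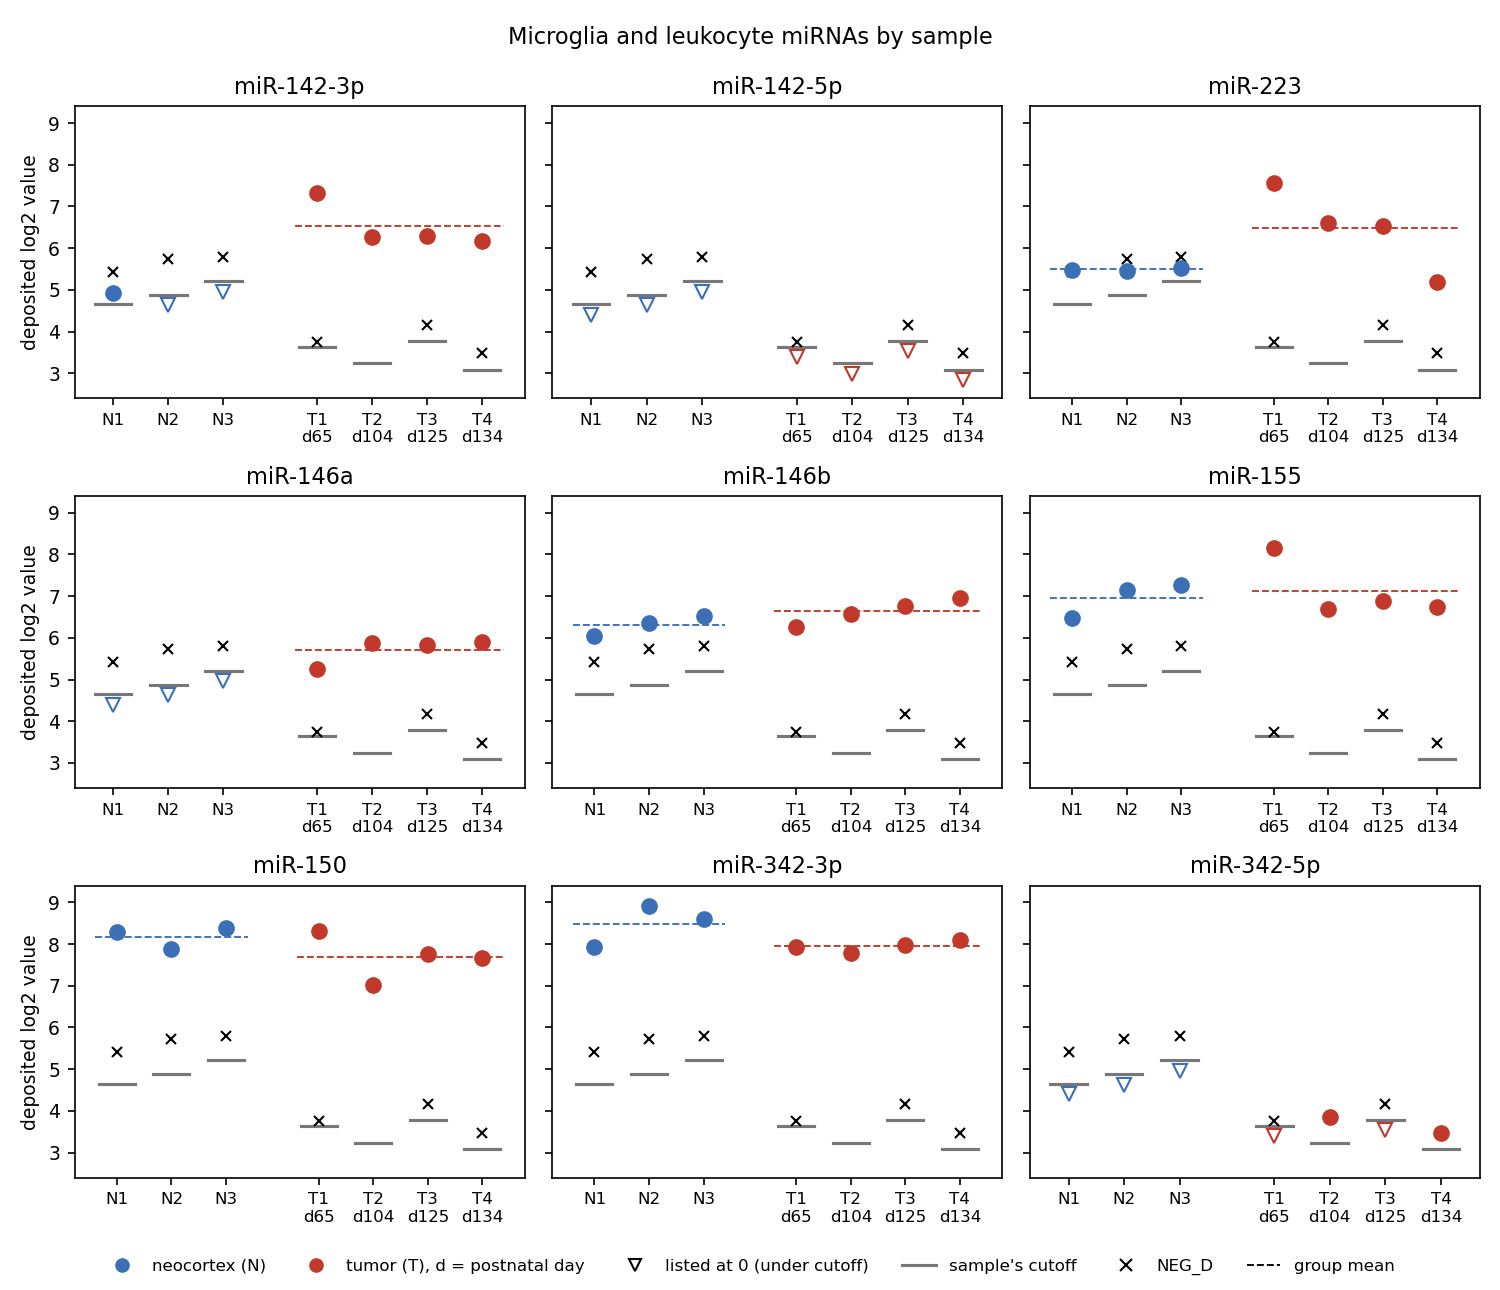
Deposited log2 value (y axis) of the 9 probes in neocortex 1 to 3 (N, blue) and tumor 1 to 4 (T, red, with postnatal day). Open triangles under the gray cutoff line are values listed at 0, crosses are the negative-control probe NEG_D, and dashed lines are group means where every sample of the group was above its cutoff. miR-142-3p and miR-146a stand above NEG_D in the 4 tumors and lie under it or at 0 in neocortex.

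Of the 9 probes, miR-142-3p and miR-146a were called higher in tumor with the zeros as deposited, and the other 5 tested members did not pass the test. The background is 8.13% of all tested miRNAs called higher and 9.54% called lower, and 0 of the 7 tested members were called lower (limma, also 0 at an unadjusted p under 0.05). Nothing is read from the count of 2, since both passed the filter only through their tumor values and were called against neocortex values listed mostly or wholly at 0. At a cutoff shared by all samples 1 of 7 was called, miR-142-3p, against 11.3% of all tested. That call has the same limit, since miR-142-3p passed the filter there only through its tumor values, with every neocortex value raised to the cutoff. Of the 5 members listed above 0 in every sample 0 were called in limma (also 0 unadjusted). miR-142-5p and miR-342-5p were too low to test. The 9 probes together made up 0.720% to 0.930% of the miRNA counts in neocortex (neocortex 1 and 3; exact 95% binomial intervals 0.654% to 0.790% and 0.811% to 1.06%). In tumor their share ran from 0.718% in tumor 2 to 1.16% in tumor 1 (intervals 0.676% to 0.761% and 1.10% to 1.23%). These intervals cover counting error only. The shares of the groups overlapped, so the summed share did not separate tumor from neocortex. A sum weighs abundant members most. In neocortex 1, miR-150 and miR-342-3p held 174 and 135 of the 438 counts, and in tumor 2 they held 179 and 302 of 1094.

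Of the 27 member values in neocortex, 11 were listed at 0, and of the 36 in tumor, 6 were. The zeros in neocortex were miR-142-5p, miR-146a and miR-342-5p in all 3 samples and miR-142-3p in neocortex 2 and 3. In tumor they were miR-142-5p in all 4 samples and miR-342-5p in tumors 1 and 3. The 4 members fixed as defining blood-derived cells, miR-142-3p, miR-142-5p, miR-223 and miR-150, did not behave alike. In neocortex miR-142-5p was at 0, miR-142-3p was at 0 or just above the cutoff, miR-223 stood at the level of NEG_D, and miR-150 alone was well above it. The name of this group therefore says where the miRNAs are known from, and the neocortex values for miR-150, miR-155 and miR-342-3p do not show which cells they came from.

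mmu-miR-142-3p, the 3p arm of a blood-lineage hairpin, was at 4.93 in neocortex 1, which is 17 counts, and at 0 in neocortex 2 and 3, where the cutoff was 10 and 8 counts. In tumors 1 to 4 it was at 7.33, 6.28, 6.30 and 6.18, or 167, 107, 92 and 137 counts. All tumors were above neocortex 1, and the 1 neocortex value lay 0.49 below NEG_D of the same sample. Groups that do not overlap were found for 2 of the 7 tested members, miR-142-3p and miR-146a, and for 32.9% of all tested miRNAs. With each 0 set to the cutoff of its own sample, the tumor mean of 6.52 ± 0.54 (SD, n = 4) was at least 2.86-fold higher than neocortex (1 of 3 samples measured). The call with the values as deposited had an adjusted p of 0.044 in limma (Benjamini-Hochberg). With the own cutoffs it was 0.0044 in limma, where the values of neocortex 2 and 3 are cutoffs and not measurements. In bulk tissue more cells of a type and more RNA per cell cannot be told apart.

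The call depended on the handling of zeros and on single samples. With every value raised to the highest cutoff of the 7 samples, 5.21 (the shared cutoff), the difference was 1.31 (SE 0.28, adjusted p = 0.011 in limma, Benjamini-Hochberg). Every neocortex value is then 5.21, so 1.31 is a lower bound and that p holds no neocortex spread. With the deposited zeros, leaving out any 1 sample other than neocortex 1 took the adjusted p above 0.05, to at most 0.12 (limma, Benjamini-Hochberg). Without tumor 1, its highest sample, and with the shared cutoff, the difference was 1.04 and the adjusted p 0.0056 in limma. The same limit holds for these values, since the neocortex values are again all 5.21. On the housekeeping probes with own cutoffs the difference was 0.56, a lower bound, with a limma adjusted p of 0.069. On the positive-control probes with own cutoffs it was 3.23, also a lower bound (adjusted p = 5.67e-06 in limma, Benjamini-Hochberg). After subtraction of NEG_D, at the shared cutoff, it was 1.13 (adjusted p = 0.026 by the same test). Cutoffs stand for unmeasured neocortex values in each of these, so the p-values are not read as results.

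miR-142-5p, from the other side of the same hairpin, was at 0 in all 7 samples. Its level lay under 16 counts in tumor 4, where miR-142-3p had 137, and under 14 counts in neocortex 1, where miR-142-3p had 17. The probes of the arms may differ in efficiency, so the counts stand side by side and give no ratio between arms.

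mmu-miR-223, the myeloid member, lay at 5.48, 5.46 and 5.53 in neocortex and at 7.57, 6.60, 6.53 and 5.19 in tumors 1 to 4. Tumors 1, 2 and 3 were above every neocortex sample and tumor 4 was below all of them, so the groups overlapped. Counted directly the neocortex values were 25, 15 and 10, against 24, 18 and 12 for NEG_D in the same samples, so miR-223 could not be told from a negative control there. The tumor counts of 198, 133, 108 and 69 were 184, 133, 87 and 48 above NEG_D. The difference of 0.98 (SE 0.53) had an adjusted p of 0.23 in limma (Benjamini-Hochberg), with a 95% interval from -0.30 to 2.26. With 1 sample left out it ran from 0.62 (without tumor 1) to 1.41 (without tumor 4, adjusted p = 0.055 in limma), and the call did not change. It was 2.70 on the positive-control probes, which passed the test, and 0.02 on the housekeeping probes.

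mmu-miR-146a and mmu-miR-146b, the NF-kB-induced pair with 1 seed, gave different values in these samples. miR-146a was at 0 in the 3 neocortex samples and at 5.26, 5.88, 5.82 and 5.91 in tumors 1 to 4, or 40, 81, 66 and 113 counts. Every tumor value lay above every neocortex cutoff, the highest of which was 5.21, and tumor 1 only just. Against the neocortex cutoffs the tumor mean of 5.72 ± 0.31 (SD, n = 4) was at least 1.75-fold higher. The adjusted p in limma (Benjamini-Hochberg) was 0.029 with own cutoffs, where the neocortex spread is that of the cutoffs and not of miR-146a. With the zeros as deposited the adjusted p in limma was 2.21e-05. It follows from how values under the cutoff are listed, since the neocortex values then have no spread. With the shared cutoff the difference was 0.51 (SE 0.19) and did not pass (adjusted p = 0.086 in limma, Benjamini-Hochberg). Without tumor 1 as well it was 0.66, with an adjusted p of 0.014 by the same test. All neocortex values are then 5.21, so both differences are lower bounds and neither p holds a neocortex spread. The 0.014 is therefore not read as a result. After subtraction of NEG_D, at the shared cutoff, the difference was 0.28 and did not pass (adjusted p = 0.37 in limma, Benjamini-Hochberg). On the housekeeping probes with own cutoffs the bound was -0.16, and since the neocortex level lies somewhere below its cutoffs, no direction can be read from it. On the positive-control probes with own cutoffs the bound was 2.52 (adjusted p = 1.99e-05 in limma, Benjamini-Hochberg). The neocortex spread there is again that of the cutoffs, and this p is not read as a result.

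miR-146b was measured in every sample, at 6.05, 6.36 and 6.53 in neocortex and at 6.26, 6.56, 6.77 and 6.96 in tumors 1 to 4. The groups overlapped, and only tumors 2, 3 and 4 were above all neocortex samples. The difference of 0.32 (SE 0.23, 95% interval -0.24 to 0.89) had an adjusted p of 0.35 in limma (Benjamini-Hochberg). On the positive-control probes it was 2.04 and passed the test (adjusted p = 0.0029 in limma, Benjamini-Hochberg), and on the housekeeping probes it was -0.64. Its neocortex values were 37, 28 and 20 counts, only 13, 10 and 8 above NEG_D. After subtraction of NEG_D, and at the shared cutoff, miR-146b was at least 1.26 higher in tumor (adjusted p = 0.0040 in limma, Benjamini-Hochberg). The subtraction took every neocortex value below the shared cutoff, so all were raised to 5.21. That p then holds no neocortex spread and is not read as a result. In the same neocortex samples miR-146a was under 14, 10 and 8 counts, although the sequences printed above differ at 2 bases.

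mmu-miR-155, the activation-induced member, was at 6.48, 7.14 and 7.26 in neocortex and at 8.16, 6.70, 6.88 and 6.73 in tumors 1 to 4. In the values as deposited, tumor 1 was above every other sample, and the other 3 tumors lay within the neocortex range. The difference of 0.16 (SE 0.43) had an adjusted p of 0.78 in limma (Benjamini-Hochberg), with an interval from -0.88 to 1.19. Its direction turned to -0.19 without tumor 1, -0.08 without neocortex 1 and -0.80 on the housekeeping probes. On the positive-control probes the difference was 1.87 and passed the test (adjusted p = 0.0047 in limma, Benjamini-Hochberg). The neocortex values of miR-155 were 50, 48 and 33 counts, which is 26, 30 and 21 above NEG_D. After subtraction of NEG_D, at the shared cutoff, the difference was 0.80 and did not pass (adjusted p = 0.21 in limma, Benjamini-Hochberg).

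mmu-miR-150, the lymphocyte member, was at 8.28, 7.88 and 8.38 in neocortex and at 8.32, 7.03, 7.77 and 7.66 in tumors 1 to 4. Tumors 2, 3 and 4 lay below all neocortex samples, and tumor 1 within their range. The difference of -0.49 (SE 0.33, 95% interval -1.28 to 0.31) had an adjusted p of 0.33 in limma (Benjamini-Hochberg), and it ran from -0.69 (without tumor 1) to -0.26 (without tumor 2) with 1 sample left out. On the positive-control probes it was 1.23 and on the housekeeping probes -1.44, and both passed the test.

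mmu-miR-342-3p was at 7.92, 8.92 and 8.61 in neocortex and at 7.93, 7.78, 7.97 and 8.09 in tumors 1 to 4. The tumors lay close together near the lowest neocortex sample. The difference of -0.54 (SE 0.27, 95% interval -1.18 to 0.10) had an adjusted p of 0.20 in limma (Benjamini-Hochberg), and without neocortex 1 it was -0.82 with an adjusted p of 0.023. On the positive-control probes it was 1.17 and on the housekeeping probes -1.50, and both passed. miR-342-5p, the other arm, was listed only in tumors 2 and 4, at 3.86 and 3.48, which are 20 and 21 counts. The value in tumor 4 equaled NEG_D of that sample, and both values lay below every neocortex cutoff, so nothing can be said of tumor against neocortex.

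**Figure D2:**
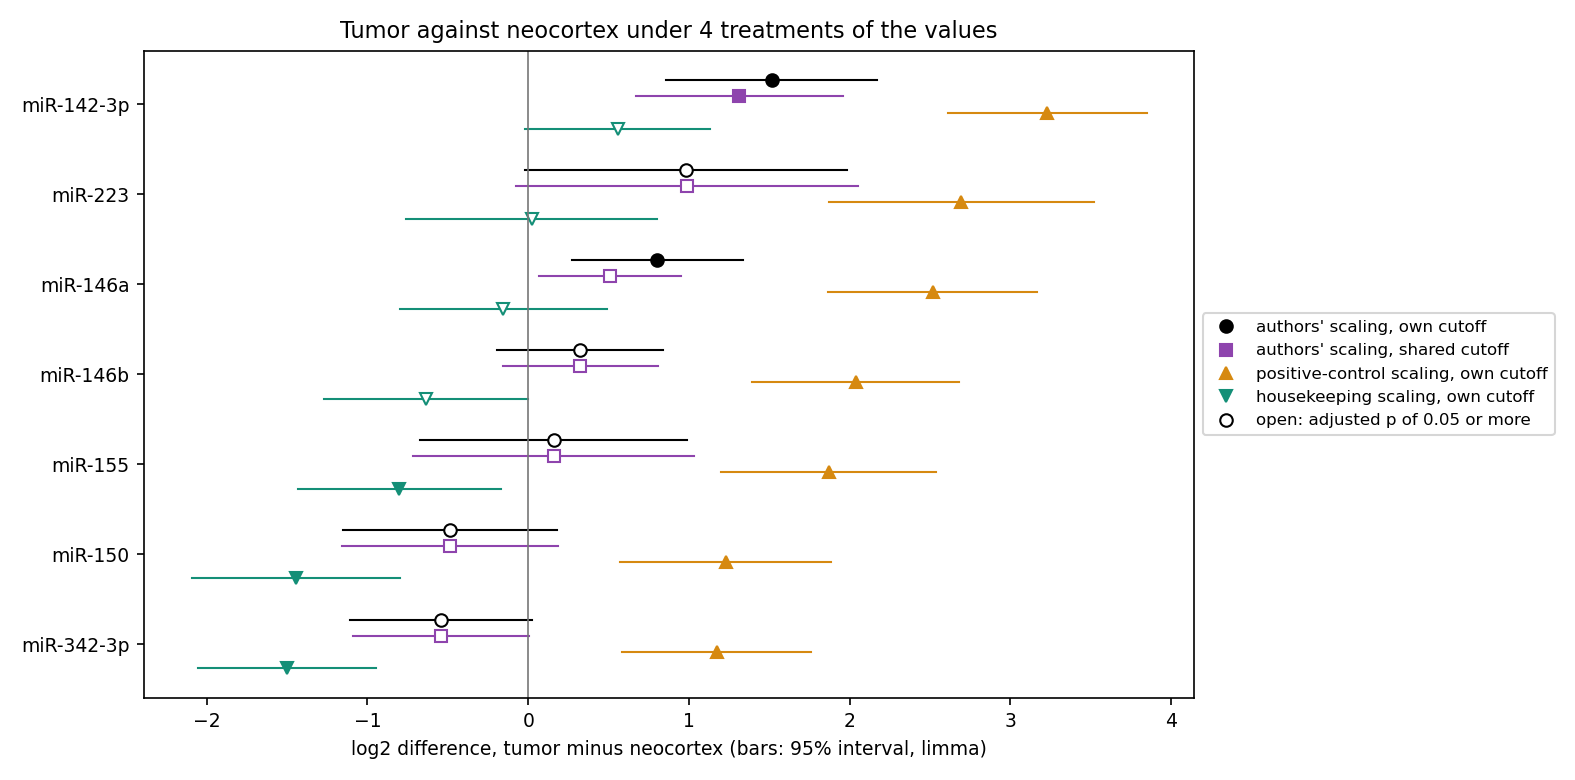
Log2 difference, tumor minus neocortex, of the 7 tested members (x axis) with 95% limma intervals, filled where the adjusted p was under 0.05. Zeros were set to each sample's own cutoff or to the shared cutoff, so all miR-142-3p and miR-146a points are lower bounds. The 7 points on the positive-control probes lie above 0, whereas the measured differences of miR-146b, miR-155, miR-150 and miR-342-3p lie below 0 on the housekeeping probes. The miR-146a point there, at -0.16, is a lower bound and gives no direction.

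Ranks among the 566 miRNA probes of a sample do not depend on its scaling, and rank 1 is the highest level. miR-342-3p ranked 43 to 64 in neocortex and 51 to 68 in tumor, and miR-150 ranked 55 to 67 and 55 to 89. miR-155 ranked 92 to 122 in neocortex and 60 to 107 in tumor. miR-146b ranked 127 to 144 in neocortex and 90 to 144 in tumor. Those 4 miRNAs overlapped between groups. miR-223 ranked 172 to 194 in neocortex and 81 to 175 in tumor, so its groups overlapped too, through tumor 4 at rank 175. miR-142-3p ranked 211 in neocortex 1 and 93 to 130 in the tumors. miR-146a ranked 141 to 201 in the tumors and was unranked in neocortex.

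Differences between members within a sample are also free of the scaling. Over the 10 pairs of the 5 members measured in every sample, 1 pair did not overlap between groups. miR-146b minus miR-342-3p was -2.17 ± 0.35 (SD) over the 3 neocortex samples and -1.31 ± 0.25 (SD) over the 4 tumors. The 2-sided exact permutation p was 0.0286, the smallest that 3 against 4 samples allow. Adjusted over the 10 pairs (Benjamini-Hochberg) that permutation p was 0.214. miR-150 minus miR-342-3p, the pair with the highest values, was -0.30 ± 0.70 (SD) over the 3 neocortex samples and -0.25 ± 0.48 (SD) over the 4 tumors, a difference of 0.06.

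The 4 tumors were of 4 ages with 1 tumor at each, so age and the single tumor cannot be told apart. A trend with day was not tested, and the orders below are descriptions. miR-223 was lower in each later tumor, from 7.57 at day 65 to 5.19 at day 134, a drop of 2.38. Its counts of 133 and 108 at days 104 and 125 had exact Poisson 95% intervals of 111 to 158 and 88.6 to 130, and the gap between their log2 values, 6.60 and 6.53, is within that counting error. miR-146b was higher in each later tumor, from 6.26 at day 65 to 6.96 at day 134, while tumor 1 was within the neocortex range. Its exact Poisson 95% intervals, on the log2 scale of the values, overlapped between each tumor and the next in age, and those of day 65 (5.93 to 6.58) and day 134 (6.77 to 7.15) did not overlap. miR-142-3p and miR-155 had no such order: the day 65 tumor stood 1.08 and 1.39 above the mean of the other 3, which lay within 6.18 to 6.30 and within 6.70 to 6.88. miR-150 was also highest at day 65, and lowest at day 104. miR-146a took the opposite side and was 0.61 lower at day 65 than the mean of the later tumors, which lay within 5.82 to 5.91. miR-342-3p stayed within 7.78 to 8.09 with no order.

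**Figure D3:**
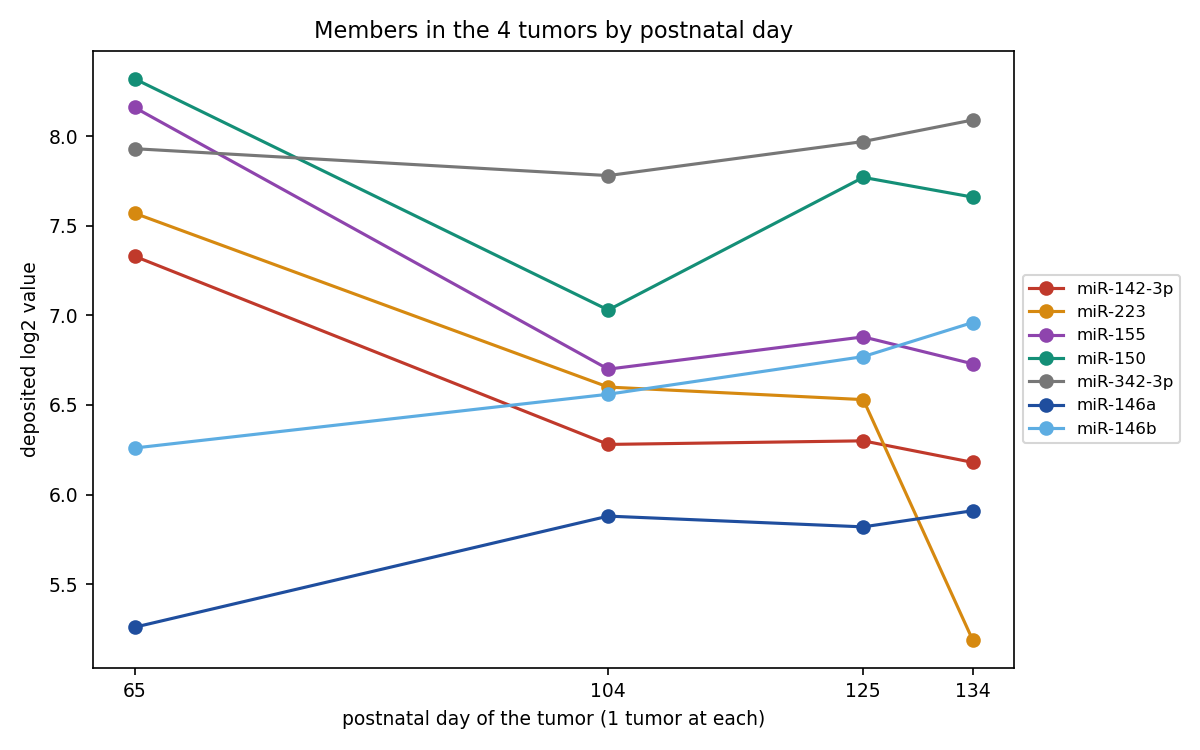
Deposited log2 value (y axis) of the 7 tested members against the postnatal day of the tumor (x axis), 1 tumor per point, joined by lines for reading only. Between day 65 and day 134 miR-223 goes from 7.57 to 5.19 and miR-146b from 6.26 to 6.96, and the day 65 tumor is the highest for miR-142-3p, miR-155 and miR-150.

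Markers of red blood cells and vessels were read beside miR-142-3p, and all counts called here stand beside 8.13% higher and 9.54% lower over all tested miRNAs. Of 3 red blood cell miRNAs (miR-451, miR-144 and miR-486) 0 passed the test in limma (also 0 without adjustment of p). Their median difference was 0.71, and their summed linear level was 268 to 366 in neocortex and 396 to 675 in tumor. miR-486 was at 0 in neocortex 3. Of the 2 endothelial probes, miR-126-3p and miR-126-5p, 0 passed in limma as deposited (1 without adjustment of p), with a median of 0.73 and sums of 711 to 940 in neocortex and 1282 to 2388 in tumor, and miR-126-3p passed with the shared cutoff (0.94, adjusted p = 0.023 in limma, Benjamini-Hochberg). On the housekeeping probes miR-126-3p differed by -0.02 and miR-451 by -0.25. Tumor 1, the highest tumor for miR-142-3p, miR-223, miR-155 and miR-150, was also the highest sample for miR-451 at 8.86 and for miR-126-3p at 11.11, and had the fewest miRNA counts of the tumors. Of the brain cell markers, both oligodendrocyte miRNAs (miR-219 and miR-338-3p) were lower, with a median of -2.13. In limma 0 of the 3 neuronal miRNAs (1 lower without adjustment of p) and 0 of the 2 astrocyte miRNAs (2 higher without adjustment) passed, with medians of -0.75 and 0.68. The part of blood, vessel or brain cell content in the results was not tested.

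miR-142-3p was also set against these markers within each sample, where 2 of the 3 neocortex values are bounds. miR-142-3p minus miR-451 was -3.02 in neocortex 1, at most -2.46 and -2.70 in neocortex 2 and 3, and -1.53, -1.85, -2.44 and -1.86 in tumors 1 to 4. The tumors lay above the bounds, tumor 3 only just. The 2-sided exact permutation p was 0.0571 with own cutoffs (a difference of 0.81) and 0.0857 with the shared cutoff (0.60), under which the groups overlapped. miR-142-3p minus miR-126-3p was -4.80 in neocortex 1, at most -4.45 and -4.37 in neocortex 2 and 3, and -3.78, -3.92, -4.03 and -4.14 in tumors 1 to 4. Its 2-sided exact permutation p was 0.0286 with own cutoffs (0.57) and 0.0857 with the shared cutoff (0.37), under which these groups overlapped too. With the deposited zeros p was 0.0286 for both markers, but the neocortex 2 and 3 values are then only the marker's own level with its sign turned. With own cutoffs the same 2 values are a cutoff minus the marker, and with the shared cutoff all 3 neocortex values are. None of these permutation p-values is therefore read as a result.

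**Figure D4:**
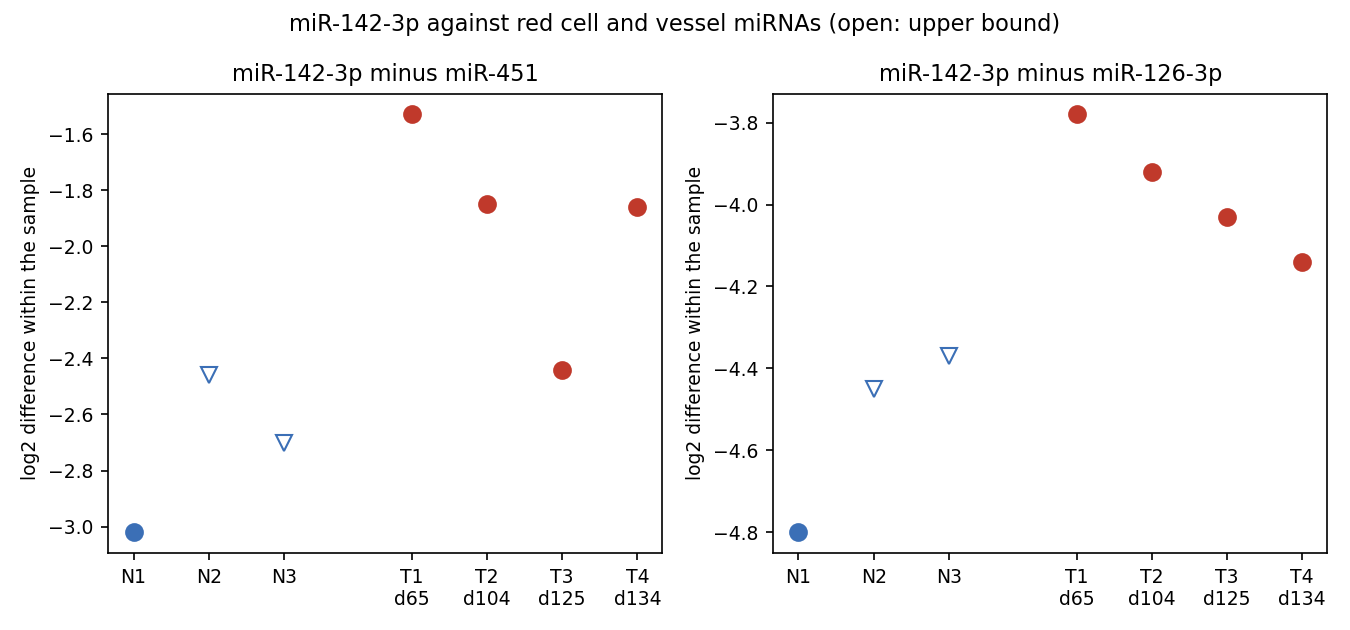
miR-142-3p minus miR-451 (left) and minus miR-126-3p (right) within each sample, on the log2 scale (y axis), for neocortex 1 to 3 (N, blue) and tumor 1 to 4 (T, red, with postnatal day). Open triangles are upper bounds, with miR-142-3p at the sample's cutoff. The tumors lie at -2.44 or higher in the left panel and at -4.14 or higher in the right, above the neocortex points and bounds.

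Other miRNAs known from immune responses were followed as lists. Of 13 miRNAs known from macrophages and innate responses, 11 were tested, with a median difference of 0.57. In limma 2 were called higher and 0 lower, or 5 and 0 if p is left unadjusted, beside 8.13% and 9.54% of all tested miRNAs called. They were miR-21, which is raised in activated macrophages and in many other cells, at 2.76, and miR-9, which is induced in monocytes but is mainly a neural miRNA, at 1.22 (SE 0.28 and 0.19, adjusted p = 0.0018 and 0.0091 in limma, Benjamini-Hochberg). miR-125b-5p, the most abundant of this list, differed by 0.25 and did not pass, and miR-511, which lies in the macrophage mannose receptor gene, was at 0 in 5 of 7 samples. Of 11 known from lymphocyte development and activation, 8 were tested, and 3 were higher and 1 lower beside the same 8.13% and 9.54%, with a median of 1.12. The 3 were the probe of miR-106a and miR-17 at 1.38, the probe of miR-20a and miR-20b at 1.14 and miR-19b at 1.11, all of the growth-promoting miR-17-92 cluster or its paralogs, and the lower one was miR-181a, a tuner of T cell receptor signaling that is also abundant in brain, at -0.99 (0.72 on the positive-control probes). miR-29b and miR-29a, the most abundant of that list, differed by 0.70 and 0.66 and did not pass (-0.26 and -0.30 on the housekeeping probes). On the housekeeping probes the 3 called higher in this list were at 0.42, 0.18 and 0.15, and miR-181a was at -1.95. In the first list miR-21 was at 1.80 there and miR-9 at 0.26. On the positive-control probes the miRNAs called higher ran from 2.82 (miR-19b) to 4.48 (miR-21). The miRNAs of these lists are made by brain or dividing cells as well, so the lists do not single out immune cells. With the shared cutoff, 4 higher and 0 lower of 10 tested were called in the first list and 5 and 1 of 6 in the second, beside 11.3% higher and 16.2% lower of the 204 miRNAs tested there.

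As a description over the 7 samples, which share scaling and group, the miRNAs whose values followed each member most closely were ranked by Pearson's r with the shared cutoff among 184 other probes. With that cutoff miR-142-3p and miR-146a were at 5.21 in all 3 neocortex samples, which are not measurements. Their r therefore rests on the tumor values and on the step between the groups. miR-142-3p was most like miR-19b (r = 0.983), miR-126-3p (0.976) and miR-29a (0.960). miR-223 was most like miR-203 (0.975), miR-126-5p (0.909) and miR-29a (0.878). miR-146a was most like miR-365 (0.934), miR-93 (0.915) and miR-125b-5p (0.897), and miR-146b like miR-93 (0.861), miR-146a (0.807) and miR-365 (0.790). miR-342-3p was most like miR-376c (0.983), miR-1198 (0.948) and miR-384-3p (0.940), miR-150 like miR-145 (0.938), miR-532-5p (0.841) and miR-1839-5p (0.784), and miR-155 like miR-674 (0.858), miR-221 (0.778) and miR-148a (0.751). No member was among the 3 closest miRNAs of another member, except miR-146a for miR-146b.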

How the data were processed

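Total RNA of 7 samples was run on the nCounter panel, per the labels. The authors deposited 1 column of log2 values per sample, to 2 decimals. How they normalized, set the cutoff and with which software is not given in the sources used here. All 115 to 226 values per sample up to 40 counts were whole multiples of 1 unit within 0.02 counts plus rounding, which gave the counts; larger counts are known to 0.347%. No count model was run, since the unit is log2.

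Groups and replicate numbers came from the titles. Tumor was compared with neocortex in limma 3.58.1 (R 4.3.3; lmFit, eBayes, 2-sided), without covariates or pseudocount. Tested were miRNA probes with a mean of at least 2.80, the median of all. The shared cutoff needed 3 samples above it. Single values were compared by exact permutation over 35 splits. The fit was tested on simulated data. The members and lists were chosen with earlier results of these data known. Named are all members, the 3 closest miRNAs of each, and, from each list, those called and the 2 most abundant. Positive-control scaling used 5 probes and housekeeping scaling the 3 mRNA probes above 0 in all samples, which leaves out B2m. Same-numbered samples deviated from their group means with correlations of -0.04, -0.03 and 0.06, and no label pairs them.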

Additional observations from a re-analysis of the deposited data

Results flagged for a closer look

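Within the 4 tumors, tumor 1 (postnatal day 65) stood far from the other 3 for 4 of the 10 probes checked, where its gap to the nearest tumor exceeded Dixon's 95% critical value of 0.829 of the range; chance flags about 1 in 20 such groups. These were miR-142-3p at 7.33, miR-155 at 8.16, the endothelial miR-126-3p at 11.11, and miR-146a on the low side at 5.26. The other tumors lay between 6.18 and 6.30 for miR-142-3p, between 6.70 and 6.88 for miR-155, between 10.20 and 10.33 for miR-126-3p and between 5.82 and 5.91 for miR-146a. The 4 flags come from 1 sample and are not independent.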

How the results depend on the processing

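The 23 miRNAs higher and 27 lower in tumor became, in limma, 228 and 0 (0 lower also at an unadjusted p under 0.05) scaled on the positive-control probes and 10 and 135 on the housekeeping probes. With own cutoffs as well these were 247 and 0 (again 0 unadjusted), and 1 and 228. There were 67 higher without a filter and 15 with sex as a covariate, 41 lower among miRNAs above the cutoff in all 7 samples, 65 lower with own cutoffs alone, 6 lower in male samples only, and 37 and 10 with NEG_D subtracted at the shared cutoff. With own cutoffs a 0 became 4.91 on average in neocortex and 3.44 in tumor, so those settings lean toward lower in tumor by construction. Leaving out 1 sample gave 9 to 35 higher and 8 to 46 lower. The 2 members called higher became 7 on the positive-control probes, with or without own cutoffs, and 1 with the shared cutoff, without a filter, with sex as a covariate and in males only. They became 0 in the limma test of miRNAs above the cutoff in all 7 samples (0 unadjusted), which excludes both, and 0 (0 unadjusted) on the housekeeping probes with own cutoffs; leaving out 1 sample gave 1 to 2. The 0 members called lower became 2 on the housekeeping probes and 3 with own cutoffs as well, and 0 to 1 with 1 sample left out, the 1 being miR-342-3p without neocortex 1. With the replicate number as a block, limma called 5 higher and 0 lower (unadjusted 28 and 31) and 1 member, miR-146a; same-numbered samples did not deviate together.

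Directions turned for miR-146b (-0.64) and miR-155 (-0.80) on the housekeeping probes with either treatment of zeros, for miR-155 without tumor 1 (-0.19, also at the shared cutoff) and without neocortex 1 (-0.08), within -0.19 to 0.31 over all samples left out in turn, and for miR-150 (1.23) and miR-342-3p (1.17) on the positive-control probes with either treatment. For miR-146a the value on the housekeeping probes with own cutoffs was -0.16, a lower bound that shows no turn. miR-142-3p kept its direction under all 25 alternatives and lost its call in 11. In each of them zeros or cutoffs stand for unmeasured neocortex values. On the authors' scaling these are at most 5.21, below the lowest deposited tumor value of 6.18, so the direction could hardly turn. The kept direction is therefore not read as a result. miR-142-3p minus miR-451 was 0.60 with the shared and 0.81 with own cutoffs, and minus miR-126-3p it was 0.37 with the shared cutoff. With 1 sample left out they were 3.26 to 5.71 and 3.10 to 5.49 with the deposited zeros. The cause was not tested, except that cutoffs replace zeros by construction. Own cutoffs, NEG_D subtraction at the shared cutoff, and the shared cutoff without tumor 1 were chosen after seeing the data. Depth limits the neocortex: at 8 to 14 counts of cutoff, miR-142-3p, miR-146a and miR-223 there are bounds or at the level of NEG_D.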

Other observations

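B2m, the light chain of MHC class I that presents peptides to T cells, is 1 of the reference mRNA probes of the panel. It was at 4.84 and 4.88 in neocortex 1 and 2, which is below NEG_D of the same samples, at 0 in neocortex 3, and at 7.92, 7.31, 7.88 and 7.15 in tumors 1 to 4. All tumors were above all neocortex samples, with tumor 1 the highest, as for miR-142-3p. The reference probes Actb, Gapdh and Rpl19 were also higher in all tumors. Actb was at 8.40 to 8.87 in neocortex and 9.25 to 10.13 in tumor. Gapdh was at 6.48 to 7.49 and 7.53 to 7.85, and Rpl19 at 6.54 to 6.91 and 7.54 to 8.15, in the same order.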
